A study of Sus scrofa with 22 samples.

Results

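Blood and lymphatic vessel genes are described here as they were measured in laser-dissected compartments of the pig endometrium. They are 49 genes chosen by function: endothelial surface and junction proteins, angiogenic ligands with their receptors, lymphatic genes and hypoxia-inducible factors. Of the 49 genes, 45 were listed in at least 1 of the 3 deposited count tables, out of 12401 genes in all. Listed were 41 for luminal epithelium (LE), 39 for glandular epithelium (GE) and 45 for stroma (S). LYVE1, RELN, MMRN1 and PROX1 were listed in S alone, and FLT4 and TAL1 in LE and S alone. ANGPT1, PDPN and STAB2 were in none of the tables, and the symbol PDGFB was not matched in the annotation, so these 4 genes are not analysed here.

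The study asked how the cell types of the endometrium respond to the conceptus on Day 12, the time at which the pig conceptus signals its presence to the mother. All gilts were prepuberal crossbreds of German Landrace and Piétrain that received PMSG and then hCG to bring them into estrus together. Gilts of the pregnant group were inseminated with semen, and those of the control group (nonpregnant, cyclic) with the supernatant of centrifuged semen. Sections stained with Cresyl violet were dissected by laser capture microdissection (LCM), and 1 RNA-seq library was made per gilt and cell type. LE and GE hold 4 control gilts (02, 04, 06 and 13) and 4 pregnant gilts (01, 03, 05 and 14), and S holds 3 control gilts (02, 04 and 13) and 3 pregnant gilts (01, 05 and 14). Values per library are given in these orders throughout. According to the study, the S areas were a mix of fibroblasts with other cells, immune cells above all. It also states that regions rich in blood vessels were not collected for S, and no compartment was dissected for its vessels.

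Endothelial cells line blood and lymphatic vessels and are recognised by junction and surface proteins such as PECAM1 and CDH5. Ligands of the VEGF family act through the receptors FLT1 and KDR on blood endothelium and FLT4 on lymphatic endothelium, with the neuropilins NRP1 and NRP2 as co-receptors, and the transcription factor PROX1 sets lymphatic identity. In the uterus, vessel growth and permeability increase around implantation, and VEGF ligands can also be made by epithelial and stromal cells.

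The totals of the 22 libraries lay between 893912 and 4020796 counts, and between 0.236% and 0.746% of the counts fell on the vessel genes. Levels are given as CPM, the read count scaled to the library size, after TMM normalization within a cell type. A floor of 3 counts is used where all libraries of a group were at or below it. Pregnant gilt 01 had the lowest total of its group in each cell type, with 893912 counts in LE, 1994670 in GE and 1344151 in S. The S library of pregnant gilt 01 and the GE library of control gilt 02 stood apart in their cell type markers. The fibroblast markers (10 of 10 listed) summed to 67524, 8749 and 12403 CPM in pregnant S and 5235, 8741 and 9169.8 CPM in control S, and to 47998, 16829, 12534 and 4208 CPM in control GE. Epithelial markers (10 of 10 listed) were lowest in the same libraries, with 1282 CPM in pregnant S gilt 01 and 837 CPM in control GE gilt 02. The other libraries of gilt 01 were also rich in fibroblast markers. Its GE library had 32154 CPM, beside 10683 to 14435 CPM in the other pregnant GE libraries, and its LE library had the highest sum of LE (23635 CPM). The summed epithelial markers did not separate LE (3065 to 4456 CPM) from S (1282 to 4369.6 CPM), and fibroblast markers were high in LE too (9595 to 23635 CPM). Thus these lists did not tell the libraries of LE and S apart.

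The vessel content of each library was described by the summed CPM of 18 pan-endothelial members (17 listed in GE). In LE this sum was 1222, 1056, 842 and 923 CPM in control and 2076, 1156, 1147 and 856 CPM in pregnant gilts. For GE, the control gilts gave 2428, 544, 558 and 131 CPM and the pregnant gilts 1579, 610.4, 592 and 253 CPM. In S the control gilts had 633, 392 and 647 CPM and the pregnant gilts 2921, 549 and 419.7 CPM. Thus endothelial transcripts were measured in all 22 libraries, the epithelial ones included, and the libraries of gilt 01 were highest among the pregnant gilts in every cell type. Pregnant and control libraries overlapped in each of the 3 cell types. In these bulk samples, fewer endothelial cells and less RNA per endothelial cell cannot be told apart.

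**Figure D1:**
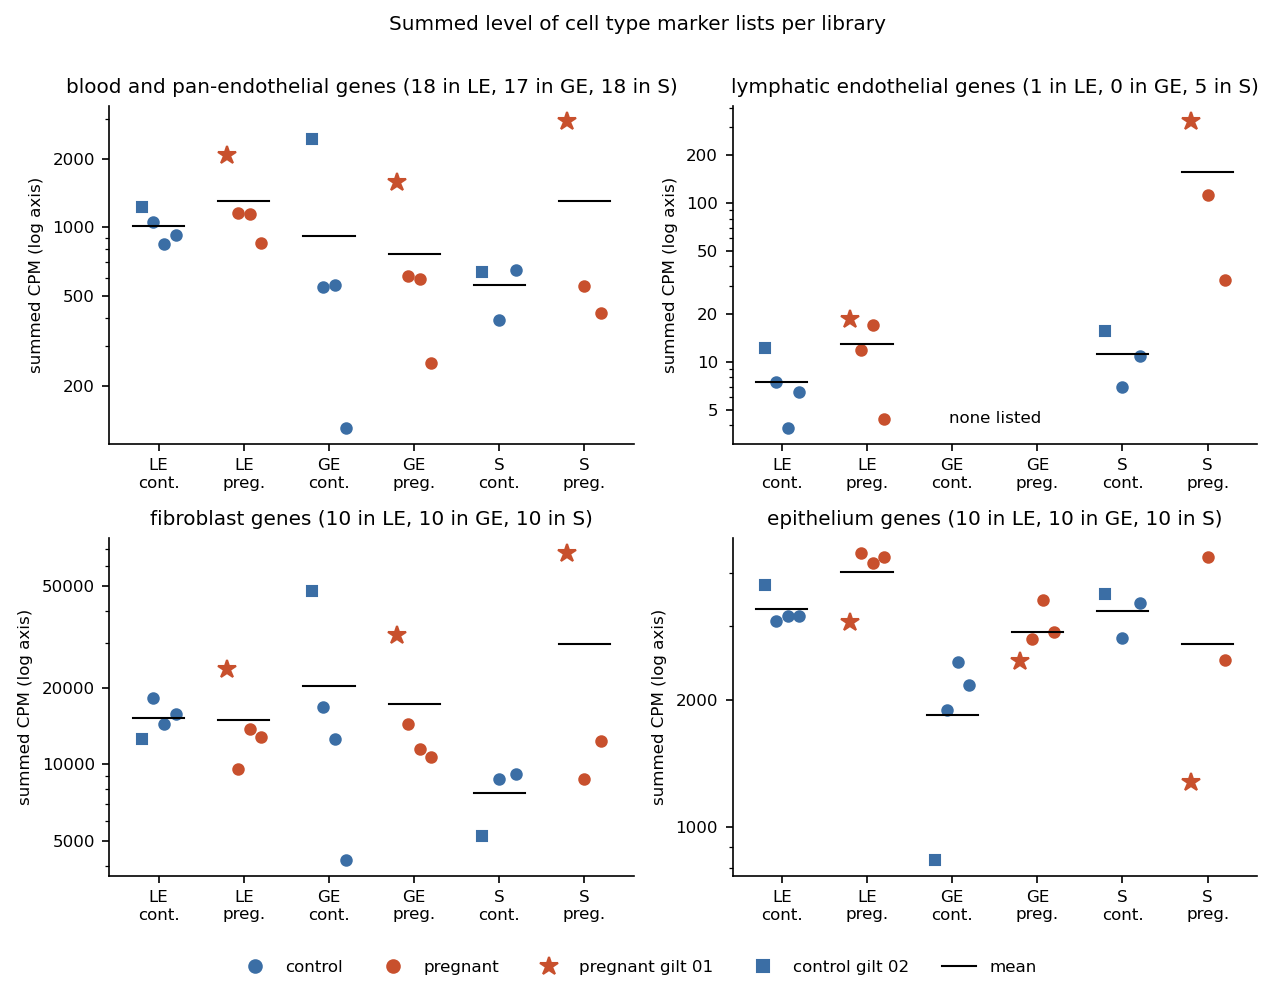
Each point is the summed CPM (log axis) of a marker list in 1 library, for control (blue) and pregnant (orange) gilts of LE, GE and S, with the mean as a line. The pan-endothelial sum of pregnant S gilt 01 (2921 CPM) lies above all other S libraries, together with its fibroblast sum (67524 CPM), while the lymphatic sums of all 3 pregnant S libraries lie above those of the 3 control libraries.

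Promoter sequences are shown for 3 of the 6 members that passed the study's threshold between pregnant and control gilts: DLL4 and HIF1A, called in LE, and MMRN1, called in S. The windows are the 300 bases before the start of the RefSeq gene model in Sscrofa11.1, read 5′ to 3′ on the strand of the gene. They lie at chr1:130386412-130386711 (minus strand), chr1:190625136-190625435 (plus strand) and chr8:129173414-129173713 (minus strand). Capitals mark the core of the ETS site, searched as CGGAA on both strands (here TTCCG).
DLL4: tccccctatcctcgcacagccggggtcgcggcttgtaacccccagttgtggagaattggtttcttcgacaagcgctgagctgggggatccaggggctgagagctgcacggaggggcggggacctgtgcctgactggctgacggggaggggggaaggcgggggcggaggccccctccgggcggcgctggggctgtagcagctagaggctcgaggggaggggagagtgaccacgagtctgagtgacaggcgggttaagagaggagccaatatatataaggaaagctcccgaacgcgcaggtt
HIF1A: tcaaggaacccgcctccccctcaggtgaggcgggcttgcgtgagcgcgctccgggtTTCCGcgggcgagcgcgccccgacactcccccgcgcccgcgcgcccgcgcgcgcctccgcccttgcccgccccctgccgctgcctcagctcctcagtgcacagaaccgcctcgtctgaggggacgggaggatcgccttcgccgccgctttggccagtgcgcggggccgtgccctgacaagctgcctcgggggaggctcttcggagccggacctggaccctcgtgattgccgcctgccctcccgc
MMRN1: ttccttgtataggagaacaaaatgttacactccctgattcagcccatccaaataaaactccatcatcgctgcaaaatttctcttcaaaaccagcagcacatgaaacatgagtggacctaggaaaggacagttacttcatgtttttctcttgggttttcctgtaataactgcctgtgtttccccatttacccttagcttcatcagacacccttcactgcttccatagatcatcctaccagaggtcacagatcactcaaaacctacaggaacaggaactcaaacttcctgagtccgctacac
The windows of DLL4 and HIF1A hold 65.00% and 75.3% G and C, and that of MMRN1 43.00%. ETS factors are widely used by endothelial genes, but of the 3 windows shown only that of HIF1A had the core, with 1 match. Over all listed members 11 of 45 windows held it (24.4%), beside 32% of 20655 windows of all genes. The core of the hypoxia response element, searched as ACGTG on both strands, was in 10 of 45 member windows (22.2%) and in 21.2% of all windows. It was in none of the 3 windows shown.

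In LE, 4 of 41 members (9.76%) were called at an FDR below 0.01, beside 10% of all 11415 genes. PGF, NRP2 and HIF1A were higher in pregnant gilts (3 of 41, beside 6.33% of all genes), and DLL4 was lower (1 of 41, beside 3.71%). PGF reached the level that every gene of the LE table had in at least 3 libraries (7.07 CPM) in pregnant libraries only, so it had to be higher in pregnant gilts to be listed and is no separate support for the count. The share of members called was thus close to that of all genes. At an unadjusted p value below 0.05 there were 15 of 41 members (36.6%), beside 35.6% of all genes. The groups did not overlap for 2 of 41 members that were higher (PECAM1 and HIF1A, beside 14% of all genes) and for 1 that was lower (DLL4, beside 12.7%). All adjusted p values (FDR) are Benjamini-Hochberg values of the quasi-likelihood test of edgeR over all genes of the table.

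Among the VEGF ligands, PGF (placental growth factor, which binds FLT1) was the one called in LE. Its CPM values were 5.17, 2.67, 1.39 and 2.53 in control and 99.2, 209.8, 51.4 and 3.44 in pregnant gilts, a log2 FC of 4.94 ± 0.99 (SE; FDR = 0.00601). Pregnant gilts 01, 03 and 05 were far above all controls, whereas gilt 14 lay within the control range, so that the groups overlapped. Without gilt 01 the log2 FC was 4.89 and the FDR 0.0116, above the threshold of 0.01, and without gilt 14 the log2 FC was 5.36. In S the same ligand measured 2.76, 1.75 and 0.366 CPM in control and 12.9, 27.8 and 8.58 CPM in pregnant gilts (3.32 ± 0.75, FDR = 0.147). The S groups did not overlap, but the gene did not pass the study's threshold for S, an unadjusted p value below 0.0021. In GE the values overlapped, with 5.94 to 18.1 CPM in control and 4.95 to 22.04 CPM in pregnant gilts (0.40 ± 0.60, FDR = 0.890). The difference between the responses of GE and LE was −4.51 on the log2 scale (FDR = 0.0952). With the gilt as a block it was −4.04 and passed the threshold of 0.05 (FDR = 0.0355), as did 1.41% of all genes. PGF was listed in LE through pregnant libraries only, so that the filter favoured a larger response in LE and this call is no separate support.

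NRP2, a co-receptor for VEGFC and for semaphorins, measured 39.9, 41.4, 40.7 and 36.6 CPM in control LE and 210.1, 36.9, 349 and 207 CPM in pregnant LE (2.34 ± 0.50, FDR = 0.00878). Controls were nearly uniform, pregnant gilts 01, 05 and 14 were far above them, and gilt 03 was at the control level. Without gilt 01 the FDR rose to 0.0163, and without gilt 03 it dropped to 0.000149. In S, NRP2 was at 39.8, 23.1 and 35.1 CPM in control and 45.3, 187 and 78.1 CPM in pregnant gilts (1.67 ± 0.53, FDR = 0.271). These groups did not overlap, and the difference did not pass the threshold. GE gave 11.9, 14.8, 15.8 and 2.16 CPM and 61.1, 7.85, 53.9 and 16.97 CPM, with overlap (1.65 ± 0.74, FDR = 0.624). In GE and S, as in LE, the mean of the pregnant group was the higher one.

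HIF1A encodes the oxygen-regulated subunit of hypoxia-inducible factor 1. Its LE values were 385, 472, 421 and 479 CPM in control and 651, 829.8, 1615 and 1749 CPM in pregnant gilts (1.47 ± 0.31, FDR = 0.00786). All pregnant libraries were above all controls, with gilt 01 nearest to them, and without gilt 01 the log2 FC was 1.67. In GE and S the groups overlapped (0.44 ± 0.23 and 0.17 ± 0.50, FDR = 0.702 and 0.942). Of 14 genes of the hypoxia response outside the member list, which include the pathway components VHL and ARNT, 10 were listed in LE. Of these, 7 had a positive and 3 a negative log2 FC. Of the 10, LDHA (lactate dehydrogenase) was called (log2 FC 1.47, FDR = 0.00418), and this 1 of 10 is the share called among all genes in LE (10%). An unadjusted p value below 0.05 was reached by 5 of the 10, beside 35.6% of all genes. The likelihood ratio test and DESeq2 each called 2 of the 10, beside 18.2% and 19.1% of all genes. The summed CPM of the 10 was 421 to 459 in control and 611 to 765 in pregnant LE, without overlap, whereas the sums overlapped in GE and S. These sums are given without a test. For GE and S, edgeR's quasi-likelihood test called 0 of 11 and 0 of 13 listed genes, with 1 each at an unadjusted p value below 0.05 (8.09% and 12.5% of all genes), and the likelihood ratio test and DESeq2 called 0.

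DLL4, the Notch ligand of arterial and sprouting endothelial cells, was the only member called lower in LE. It measured 139, 102, 93.96 and 107 CPM in control and 46.7, 42.6, 35.1 and 34.4 CPM in pregnant gilts (−1.49 ± 0.19, FDR = 0.000540). The groups did not overlap and each varied little. It was called under each of the alternatives run in LE, which include leaving out each gilt in turn. In GE the values were 98.4, 83.9, 91.6 and 116 CPM and 175, 141, 100.3 and 42.8 CPM (0.23 ± 0.37, FDR = 0.901), with gilts 01 and 03 above all controls and gilt 14 below them. The S libraries gave 169, 65.5 and 104 CPM and 92.2, 72.3 and 15.6 CPM (−0.93 ± 0.64, FDR = 0.619), with overlap. The responses of GE and LE differed by 1.74 (FDR = 0.0777), which did not pass 0.05. The likelihood ratio test, DESeq2 and the fit without gilt 14 did call this difference. Its receptors NOTCH1 and NOTCH4 were not called in any of the 3 cell types.

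**Figure D2:**
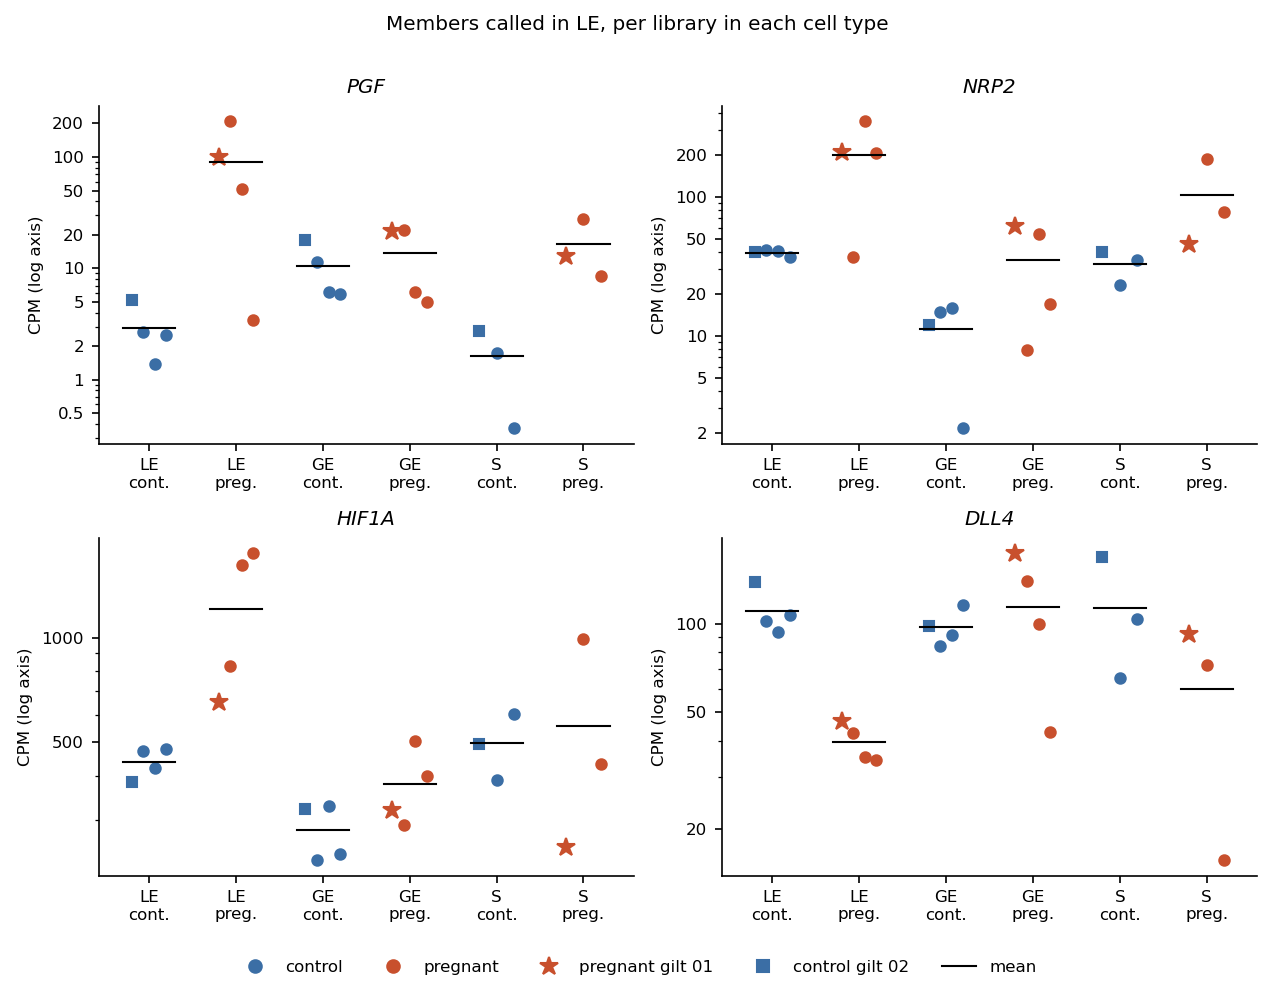
CPM (log axis) of the 4 members called in LE, 1 point per library, for control (blue) and pregnant (orange) gilts in each cell type, with the mean as a line. HIF1A and DLL4 separate the LE groups without overlap, while 1 pregnant LE library lies in the control range for PGF (gilt 14, 3.44 CPM) and for NRP2 (gilt 03, 36.9 CPM).

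The defining endothelial genes did not pass the threshold in LE. PECAM1 measured 67.9, 85.8, 76.2 and 52.7 CPM in control and 199.6, 120.5, 122 and 94.02 CPM in pregnant LE (0.91 ± 0.25, FDR = 0.0253). The groups did not overlap, and the likelihood ratio test, DESeq2 and the fit without gilt 14 called it. CDH5, the cadherin of endothelial junctions, ranged from 76.6 to 114 CPM in control to 87.1 to 294 CPM in pregnant LE (0.82, FDR = 0.105). VWF, the von Willebrand factor of endothelial granules, had ranges of 132 to 222 and 118 to 246 CPM (−0.15, FDR = 0.722). The ranges of TIE1, an orphan receptor of the angiopoietin system, were 13.2 to 22.5 and 16.6 to 43.2 CPM (0.74, FDR = 0.122). EMCN, a sialomucin of venous and capillary endothelium, had 41.9 to 64.6 and 39.7 to 109 CPM (0.72, FDR = 0.121). Over all 41 members in LE, 30 had a positive log2 FC and the median was 0.51, beside 0.0076 for all genes. PGF and NRP2 did not pass the threshold without gilt 01, while HIF1A and DLL4 did. Without gilt 01, 25 of 41 were positive and the median was 0.22. In the LE library of gilt 01 the pericyte and smooth muscle markers summed to 6117 CPM, beside 548 to 1272 CPM in the other LE libraries. The part of these markers in the result was not tested.

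In GE, 0 of 39 members were called at p below 0.0021, beside 0.694% of 11676 genes. The quasi-likelihood test of edgeR gave 0 members at an unadjusted p value below 0.05 (8.09% of all genes), and the likelihood ratio test and DESeq2 also called 0. For 0 of 39 members were the groups free of overlap, beside 2.72% of all genes in the higher and 2.2% in the lower direction. The control libraries spread widely, and PECAM1 was at 369, 44.4, 31.9 and 6.75 CPM in control and 150.4, 77.9, 72.5 and 27.2 CPM in pregnant gilts (−0.46 ± 1.02). The high control value belongs to gilt 02, the GE library with the most fibroblast markers. CDH5 (8.64 to 273 and 20.9 to 163 CPM in control and pregnant gilts), VWF (15.9 to 254 and 38.9 to 300.3 CPM), TIE1 (0.810 to 32.1 and 2.12 to 34.3 CPM) and EMCN (4.05 to 63.4 and 8.84 to 54.01 CPM) overlapped in the same way. The median log2 FC of the members was −0.049. It was 0.70 without control gilt 02 and −0.74 without pregnant gilt 01, so that its direction turned with the library left out.

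In S, 2 of 45 members (4.44%) were called at p below 0.0021, beside 1.47% of 11532 genes. MMRN1 and LYVE1 were both higher in pregnant gilts, beside 0.425% of all genes called higher, and 0 of 45 were lower, beside 1.05%. At an FDR below 0.05 there were 0 members by the quasi-likelihood test, while 9 of 45 (20%) were higher and 0 lower at an unadjusted p value below 0.05 (6.51% and 5.96% of all genes). The likelihood ratio test and DESeq2 each called 6 members at p below 0.0021, all higher, beside 4.01% and 4.44% of all genes (1.66% and 1.8% higher). Every gene listed in S reached 7.93 CPM in at least 2 libraries. For 7 of the 45 members, MMRN1 and LYVE1 among them, these were pregnant libraries only. Such members had to be higher in pregnant gilts to be listed, so they are no separate support for these counts.

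MMRN1 (multimerin 1), a protein of platelets and endothelium used as a marker of lymphatic endothelium, had 0 counts in the 3 control S libraries and 121, 48.2 and 13.8 CPM in the pregnant ones. The pregnant mean was at least 58.1-fold higher than a floor of 3 counts per library (FDR = 0.116). LYVE1, the hyaluronan receptor of lymphatic endothelium that some macrophages also carry, measured 0.394, 0.877 and 1.83 CPM in control and 48.5, 17.1 and 10.1 CPM in pregnant S (4.51 ± 0.82, FDR = 0.109). Both genes separated the groups without overlap, with gilt 01 highest and gilt 14 lowest among the pregnant gilts. Both were still called without gilt 01, LYVE1 with a log2 FC of 3.63. Neither was called without control gilt 02 or without control gilt 04, and MMRN1 was also lost without control gilt 13 and without pregnant gilt 05.

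PROX1, the transcription factor of lymphatic endothelium, measured 0, 0.292 and 0 CPM in control and 50.2, 13.7 and 2.14 CPM in pregnant S, that is 1 count in the control group and 110 counts in the pregnant group. The ratio of the summed counts, scaled to library size, was 128 with an exact 95% interval of 22.5 to 5091 for counting error only. In the fit used here PROX1 did not pass the threshold of p below 0.0021 (FDR = 0.140), although it did with library size alone, with the likelihood ratio test, with DESeq2 and without gilt 14. The study reported PROX1 as differentially expressed in stroma. For PROX1, 8.27% of the exon bases overlap another gene in the annotation. RELN (reelin, secreted by lymphatic endothelium and by neurons) measured 7.87, 2.05 and 3.29 CPM and 76.9, 22.8 and 5.21 CPM (2.96 ± 0.99, FDR = 0.296), and here gilt 14 lay within the control range. FLT4, the receptor of VEGFC and VEGFD, was at 7.48, 3.80 and 5.86 CPM and 31.6, 11.05 and 1.53 CPM (1.30 ± 0.93, FDR = 0.635), with gilt 14 below all controls. Without gilt 01 its log2 FC was 0.12. In LE, FLT4 measured 12.2, 7.48, 3.83 and 6.44 CPM in control and 18.7, 11.9, 17.2 and 4.37 CPM in pregnant gilts (0.76 ± 0.48, FDR = 0.295), again with overlap. The absence of the 4 lymphatic genes from the LE and GE tables means that they did not reach the authors' filter there. In S every listed gene reached 7.93 CPM in at least 2 libraries, and for LYVE1, MMRN1, PROX1, FLT4, NOS3, VEGFD and PGF these were pregnant libraries only. Such genes had to be higher in the pregnant group to be listed at all, so the number of lymphatic genes that were higher is no separate support.

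**Figure D3:**
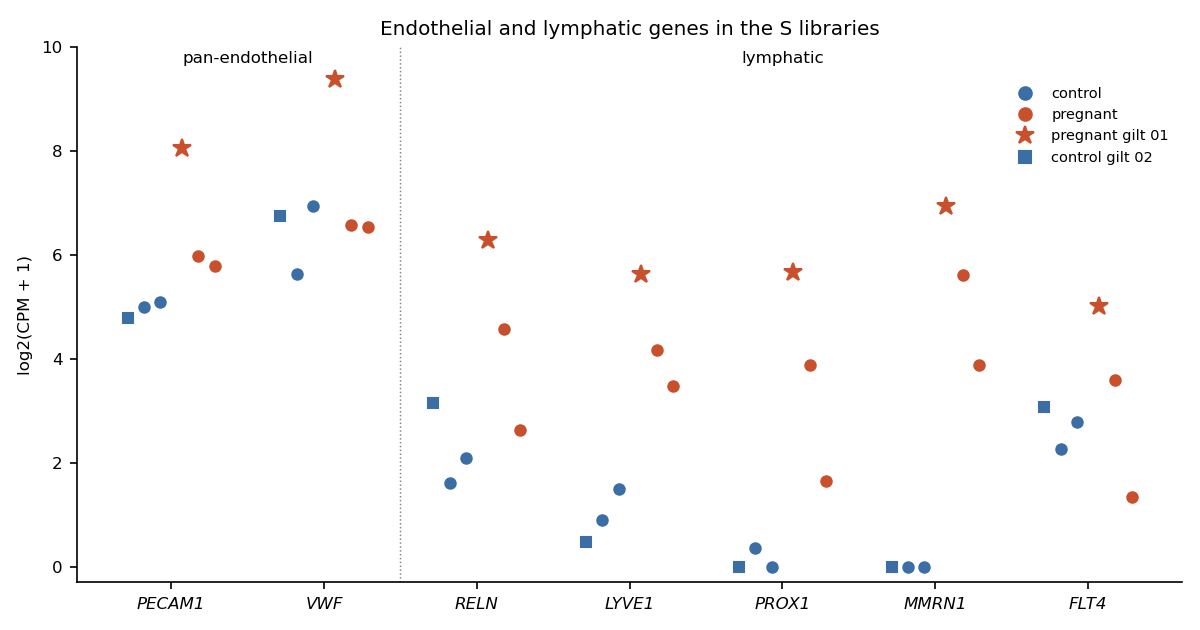
Values of log2(CPM + 1) of pan-endothelial (left) and lymphatic genes (right) in the 6 S libraries, 1 point per library, control in blue and pregnant in orange. MMRN1 is at 0 in all 3 control libraries and between 13.8 and 121 CPM in the pregnant ones, whereas VWF overlaps apart from gilt 01.

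For most of the other endothelial members in S a positive log2 FC depended on gilt 01, while PECAM1 stayed positive without it. PECAM1 measured 26.8, 30.97 and 32.9 CPM in control and 265, 62.3 and 54.5 CPM in pregnant S (2.06 ± 0.63, FDR = 0.262). It did not overlap, and without gilt 01 its log2 FC was 0.92 (FDR = 0.221). VWF measured 107, 48.5 and 123 CPM and 666, 94.8 and 91.3 CPM (1.61 ± 0.83, FDR = 0.492). Only gilt 01 was above the controls. CDH5 had ranges of 33.6 to 64.4 CPM in control and 41.7 to 289 CPM in pregnant S, TIE1 of 6.59 to 14.2 and 5.21 to 51.8 CPM, and EMCN of 17.8 to 34.3 and 26.04 to 89.01 CPM. All 3 overlapped, and their log2 FC were 1.45, 1.16 and 0.78 (FDR = 0.465, 0.653 and 0.613). Over all members in S, 40 of 45 had a positive log2 FC and the median was 1.11, beside 0.079 for all genes. Without gilt 01, 19 of 45 were positive and the median was −0.22. For the 18 pan-endothelial genes alone, 18 were positive with all libraries (median 1.26) and 6 without gilt 01 (median −0.22). The likelihood ratio test and DESeq2 each called 1 of these 18 at p below 0.0021, beside 4.01% and 4.44% of all genes. The fibroblast markers moved with the pan-endothelial genes, since 10 of 10 were higher in pregnant S with a median log2 FC of 1.68. Leukocyte markers (5 of 12 listed) summed to 75.99, 66.9 and 66.99 CPM in control and 263, 85.05 and 77.5 CPM in pregnant S, again highest in gilt 01. The part of these cell types in the result was not tested.

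The sum of the lymphatic genes was also set against the pan-endothelial sum of the same library. The 5 listed lymphatic genes summed to 15.7, 7.01 and 10.98 CPM in control and 329, 113 and 32.8 CPM in pregnant S. This was 2.49, 1.79 and 1.70% of the pan-endothelial sum in control and 11.2, 20.5 and 7.81% in pregnant S. The highest share was found in gilt 05, whose pan-endothelial sum (549 CPM) lay within the control range. The summed share was higher in each pregnant library than in any control library. However, LYVE1, MMRN1, PROX1 and FLT4 of the 5 genes were listed through pregnant libraries only, so that the filter favoured this direction. Taken singly, RELN (0.509 to 1.243% in control and 1.241 to 4.14% in pregnant S) and FLT4 (0.905 to 1.18% and 0.365 to 2.01%) overlapped. The share uses no normalization between libraries, and it is given without a test.

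The same share was then taken for each member, with a member of the sum left out of its own denominator. In LE, 3 of 41 members were higher and 4 lower without overlap between the groups (5.24% and 10.2% of all genes in LE). For GE the numbers were 1 higher and 1 lower of 39 (0.522% and 0.163%), and for S they were 4 and 4 of 45 (0.963% and 8.54%). Of the 4 higher members in S, LYVE1, MMRN1 and PROX1 were listed through pregnant libraries only, and PECAM1 was not. MMRN2 (multimerin 2), an extracellular matrix protein of blood vessel endothelium, was lower in pregnant gilts in all 3 cell types. Its CPM was 20.01, 14.4, 16.01 and 24.4% of that of the other pan-endothelial genes in control LE and 5.96, 10.6, 7.42 and 6.91% in pregnant LE. GE gave 28.4, 24.2, 19.1 and 34.8% in control and 9.72, 10.2, 10.4 and 12.2% in pregnant gilts. The S libraries had 30.4, 13.1 and 23.9% and 10.1, 6.28 and 10.8%, so that no pregnant library reached the lowest control of its cell type. The 3 cell types come from the same gilts and are not independent. Before division by the other endothelial genes MMRN2 was not called in any cell type, with log2 FC of −0.82 ± 0.27 in LE (FDR = 0.0508), −1.46 ± 0.82 in GE (FDR = 0.705) and 0.08 ± 0.84 in S (FDR = 0.985). Of the MMRN2 exon bases, 1.72% overlap BMPR1A. DLL4 relative to the pan-endothelial sum was lower without overlap in LE and in S, and PECAM1 was higher without overlap in both. The endothelial genes did not all move alike. In LE, VWF (18.6 to 22.9% in control and 11.5 to 17.1% in pregnant gilts) and NOTCH1 were lower without overlap, and TIE1 and FLT1 were higher. ERG and EPAS1 were lower in S, and S1PR1 was higher in GE. This measure and the genes named for it were chosen after the values were seen, and no test was made.

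**Figure D4:**
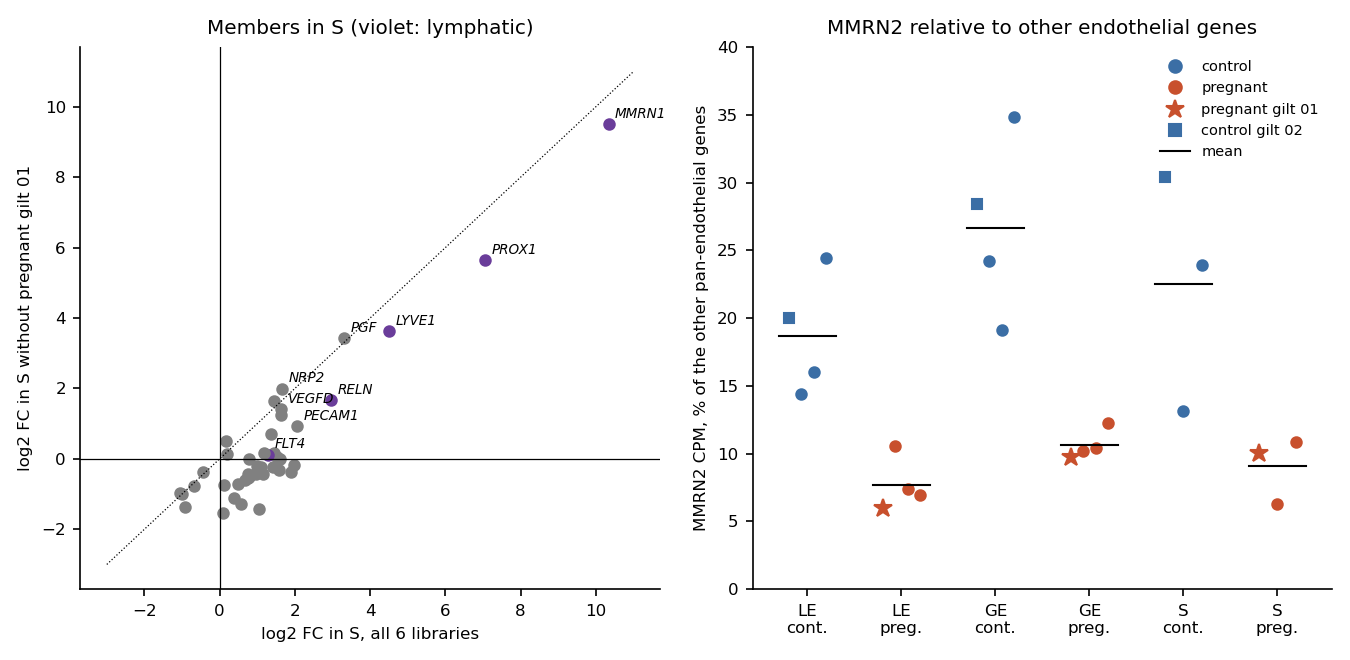
Left, log2 FC (pregnant minus control) of the 45 members in S with all 6 libraries (x axis) and without pregnant gilt 01 (y axis). Most members fall from positive values to values around or below 0 (median 1.11 and −0.22), whereas of the lymphatic genes (violet) MMRN1, PROX1, LYVE1 and RELN stay well above 0 and FLT4 falls to 0.12. The fitted value of MMRN1, with 0 counts in all controls, depends on the prior count. Right, MMRN2 CPM in percent of the other pan-endothelial genes for each library with the mean as a line, where the pregnant libraries (5.96% to 12.2%) lie below the control libraries of the same cell type.

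The remaining VEGF ligands were not called. VEGFD, a ligand of FLT4, measured 8.86, 5.88, 9.05 and 13.1 CPM in control and 1.17, 2.08, 7.26 and 3.75 CPM in pregnant LE (−1.20 ± 0.47, FDR = 0.0974). In S it had 3.94, 2.63 and 4.03 CPM in control and 14.6, 8.37 and 10.7 CPM in pregnant gilts (1.64 ± 0.46, FDR = 0.230), without overlap. The estimates had opposite signs in LE and S, but VEGFD was listed in LE through control libraries only and in S through pregnant libraries only, so that the filter favoured both directions. The difference between the responses was 2.80 ± 0.64 (FDR = 0.260), and although the likelihood ratio test, DESeq2 and the fit without gilt 05 called it, the quasi-likelihood test did not. Its GE values were 5.72 to 20.6 CPM in control and 5.05 to 11.3 CPM in pregnant gilts (−0.67, FDR = 0.752).

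VEGFA, the main ligand of KDR, measured 133, 64.3 and 134 CPM in control and 44.5, 91.7 and 22.4 CPM in pregnant S (−1.06 ± 0.54, FDR = 0.487), with overlap. Its LE ranges of 104 to 142 and 74.97 to 161 CPM and GE ranges of 9.99 to 66.9 and 20.5 to 57.5 CPM overlapped (−0.05 and 0.10). VEGFB, a ligand of FLT1, was at 21.3, 27.8 and 25.6 CPM in control and 16.2, 19.1 and 19.9 CPM in pregnant S, lower without overlap (−0.43 ± 0.28, FDR = 0.593). In LE and GE its groups overlapped (−0.80 and 0.25), and 10.2% of its exon bases are shared with TRPT1. VEGFC, the ligand of FLT4 in lymphatic growth, had 17.7 to 27.3 and 24.9 to 39.7 CPM in LE (0.48 ± 0.23, FDR = 0.158). In S its ranges were 5.84 to 15.7 and 6.13 to 55.8 CPM (1.01 ± 0.82, FDR = 0.691) and in GE 3.78 to 61.4 and 9.36 to 27.3 CPM (−0.49). The receptors KDR, FLT1 and NRP1 were not called in LE, GE or S.

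Of the angiopoietin system, ANGPT2, which loosens vessels by acting on the receptor TEK, measured 13.8, 17.5 and 18.7 CPM in control and 75.3, 63.3 and 17.2 CPM in pregnant S (1.62 ± 0.53, FDR = 0.287). Gilts 01 and 05 were above the controls and gilt 14 was among them. ANGPT2 was not called here, whereas the study reported it as upregulated in stroma and in complete endometria. The fit used here called 170 genes in S and the likelihood ratio test 463. Both are fewer than the study reported at this threshold, so that the calls are not directly comparable. The values of ANGPT2 overlapped in LE (20.02 to 34.1 and 16.1 to 52.5 CPM, 0.11) and in GE (30.8 to 124 and 39.6 to 74.8 CPM, −0.06). APLN (apelin), the ligand of APLNR, had 17.3, 16.6, 20.5 and 12.2 CPM in control and 30.4, 81.5, 15.7 and 22.2 CPM in pregnant LE (1.16 ± 0.47, FDR = 0.104), with gilt 03 highest. In GE it was at 6.59 to 16.7 and 3.19 to 8.75 CPM (−0.90, FDR = 0.639) and in S at 4.72 to 21.2 and 6.74 to 10.7 CPM (−0.69, FDR = 0.703). PDGFA, a growth factor for mesenchymal cells, overlapped in LE (7.36 to 16.98 and 2.50 to 26.9 CPM, −0.35), GE (2.97 to 44.1 and 4.93 to 14.1 CPM, −1.04) and S (6.69 to 12.6 and 3.01 to 29.1 CPM, 0.38).

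EPAS1, the second hypoxia-inducible factor and abundant in endothelium, was not called but had a negative log2 FC in each cell type. In S it measured 2059.9, 2019.7 and 2946 CPM in control and 1154, 1728 and 641 CPM in pregnant gilts (−0.996 ± 0.45, FDR = 0.421), without overlap. LE gave 2559, 1995, 3509 and 2603 CPM and 1716, 1115, 1493 and 2228 CPM (−0.70 ± 0.25, FDR = 0.0716), and GE had ranges of 1334 to 3597 and 1142 to 1709.7 CPM (−0.68 ± 0.33, FDR = 0.658). In LE and GE the groups overlapped, with 3 of 4 pregnant LE libraries below all controls. In S, 7 of 45 members were higher without overlap (PECAM1, VEGFD, PGF, NRP2, LYVE1, MMRN1 and PROX1; 15.6%, beside 8.18% of all genes) and VEGFB and EPAS1 were lower (4.44%, beside 9.38%). Of these 7, VEGFD, PGF, LYVE1, MMRN1 and PROX1 were listed through pregnant libraries only. Without gilt 01, 8 members were higher and 5 lower without overlap (13.8% and 14.6% of all genes in that comparison of 2 with 3 libraries).

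**Figure D5:**
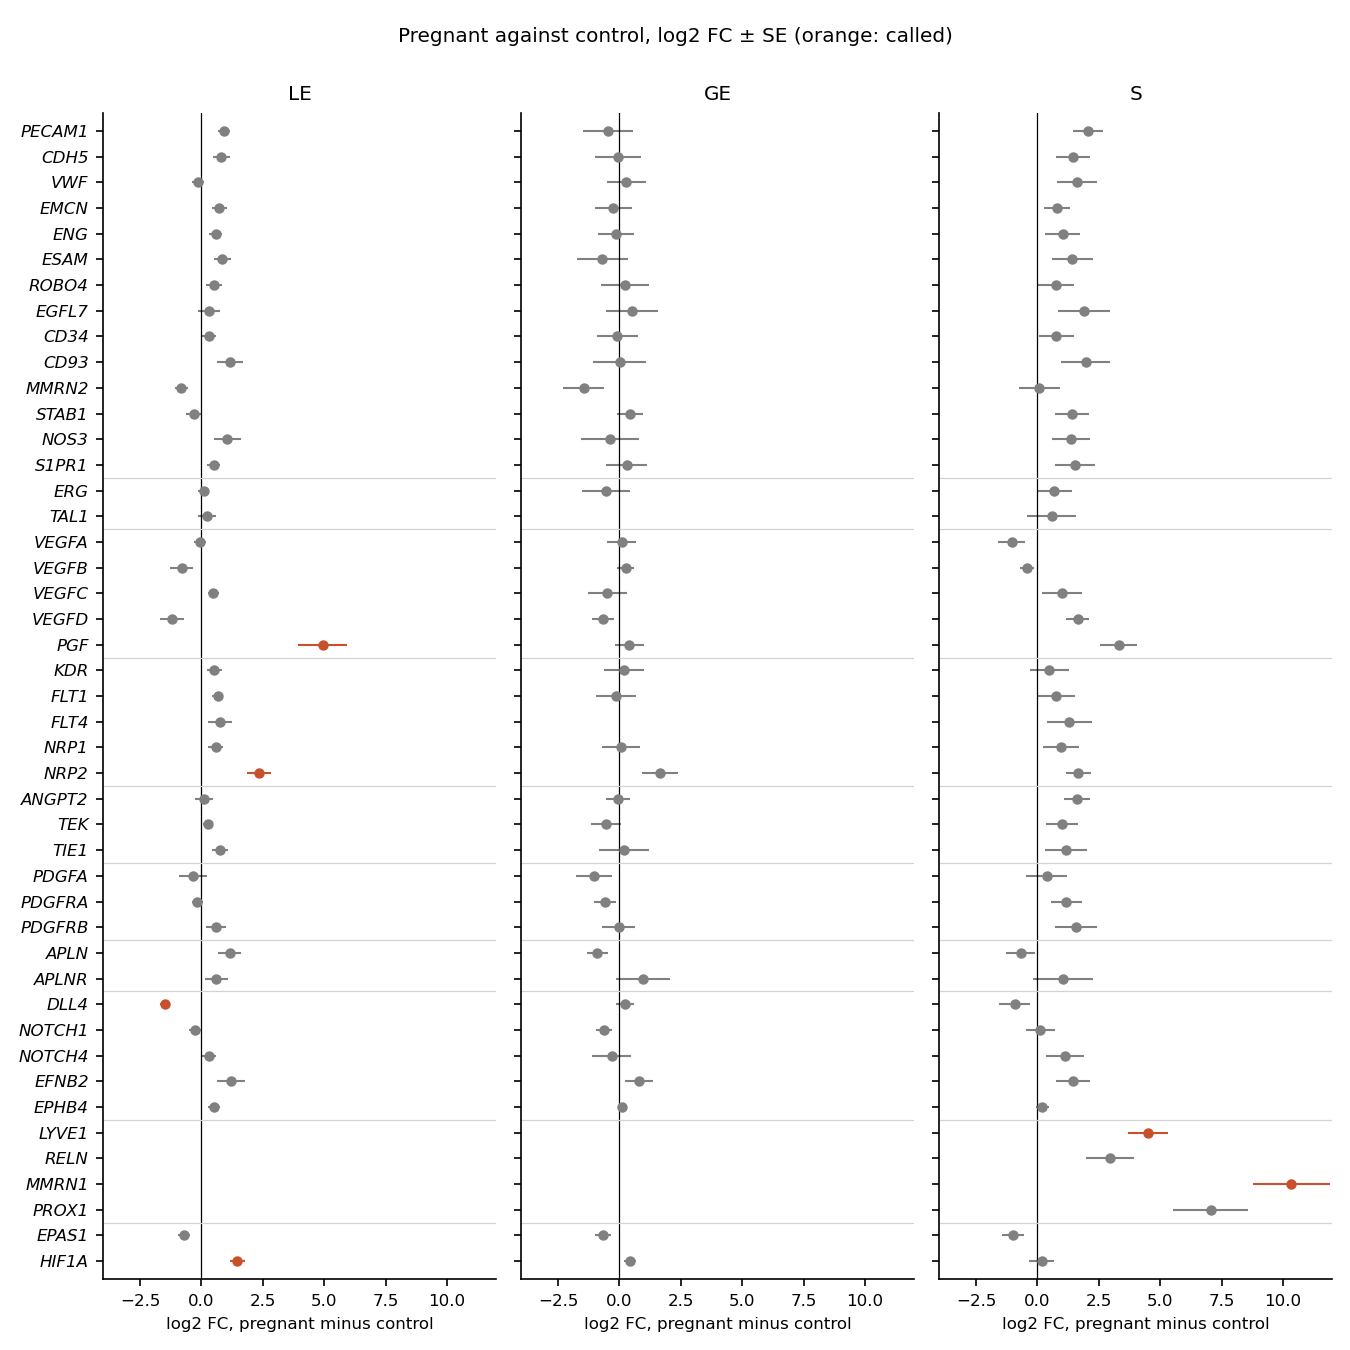
Log2 FC (pregnant minus control) with its SE for the 45 listed members in LE, GE and S, grouped by role between grey lines, with called members in orange. In S the endothelial genes at the top lie right of 0 with wide errors (median of all members 1.11, and −0.22 without gilt 01), and MMRN1, PROX1 and LYVE1 lie farthest right.

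Levels between genes were compared as CPM per kb of exon, with the median and the range over all libraries of a cell type. EPAS1 had the highest level of the members in each cell type, with 739.9 (391 to 1229) in LE, 549 (400.2 to 1260.3) in GE and 657 (225 to 1032) in S. HIF1A came next, with 198 (134 to 612) in LE, 112 (80.2 to 176) in GE and 163 (87.7 to 346) in S, and its range overlapped that of EPAS1 in LE and S but not in GE. PDGFRA, the receptor of PDGF on fibroblasts, was the third in all cell types (71.1 (48.3 to 97.6), 66.2 (24.5 to 148) and 45.3 (28.1 to 179)) and overlapped HIF1A in GE and S. At the lower end were TIE1 in GE (0.890 (0.0737 to 3.12)), TAL1 in LE (1.13 (0.746 to 2.02)) and PROX1 in S (0.110 (0 to 4.54)). The gene models of EPAS1, CDH5 and VEGFA are annotated as partial, so that their levels per kb are uncertain.

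The cell types were compared to ask in which dissected compartment the vessel genes were found, with the mean of the control and pregnant groups and an FDR of 0.05. Between S and LE, 0 of 41 members were called by the quasi-likelihood test (3.95% of all genes), 10 passed an unadjusted p value of 0.05 (22.5% of all genes), and DESeq2 called 1 (10.3% of all genes). With the gilt as a block, in the 6 gilts with both libraries, 14 of 41 members were called, all lower in S, beside 4.65% of all genes called lower by that fit. These were PECAM1, CDH5, EMCN, ESAM, ROBO4, CD34, CD93, VEGFA, KDR, FLT1, NRP1, NRP2, PDGFRB and APLNR. Without gilt 01 and without the block, 20 members were called lower in S, beside 4.84% of all genes. PECAM1, for example, was lower in S by a log2 value of −0.69 without the block (FDR = 0.221) and −0.84 with it (FDR = 0.0386). LYVE1, RELN, MMRN1 and PROX1, listed in S alone, could not enter this comparison. Over the 41 members that entered it, 35 had a negative log2 difference (median −0.54, beside −0.026 for all genes). Among these members no excess of endothelial transcripts in S over LE was measured. Pericyte and smooth muscle markers were lower in S as well (7 of 7, median −1.27). Their part in the result was not tested.

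Between S and GE, 0 of 39 members were called, beside 0% of 11124 genes. By the quasi-likelihood test 5 passed an unadjusted p value of 0.05 (6.77% of all genes), and the likelihood ratio test and DESeq2 called 0. Between GE and LE, 10 of 39 members were called, beside 25.9% of all genes (14.2% higher and 11.7% lower in GE). Lower in GE were NRP2 (−2.17), APLNR (−1.98), VEGFA (−1.75), KDR (−1.69), APLN (−1.52) and HIF1A (−1.15). Higher in GE were EFNB2 (1.37), an ephrin of arterial endothelium, ANGPT2 (0.999), VEGFB (0.95) and DLL4 (0.70). VEGFA and its receptor KDR were both higher in LE than in GE. Of 17 pan-endothelial genes, 14 were lower in GE (median log2 difference −0.49), and of all 39 members 29 were lower (median −0.44, beside 0.013 for all genes). With the gilt as a block, 13 members were lower and 2 higher in GE (15% and 15.9% of all genes), and ANGPT2 and EFNB2 were no longer called.

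Tests of whether the response to pregnancy differed between cell types called 0 members in the fit without the gilt as a block. With the block, PGF was called for GE against LE (1.41% of all genes), with the limit of its listing given above. For GE against LE this was 0 of 39 (0.958% of all genes), with 4 at an unadjusted p value below 0.05 by the quasi-likelihood test (13.3%). The likelihood ratio test and DESeq2 each called 2 there (2.73% and 3.5% of all genes). For S against LE it was 0 of 41 (0.00918%), with 5 at p below 0.05 (11.4%) and VEGFD called by the likelihood ratio test and DESeq2 (0.588% and 0.872% of all genes). For S against GE it was 0 of 39 (0%), with 3 at p below 0.05 (4.4%), and the other tests called 0. The 4 lymphatic genes listed in S alone could not enter these tests.

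Of 34 further endothelial genes outside the member list, 23 were listed in LE, 24 in GE and 23 in S. The quasi-likelihood test of edgeR called 0 of them between pregnant and control gilts, with 8 in LE, 0 in GE and 6 in S below an unadjusted p value of 0.05, beside 35.6%, 8.09% and 12.5% of all genes. The likelihood ratio test and DESeq2 each called 2, 0 and 3, where they called 18.2% and 19.1% of all genes in LE, 1.58% and 2.06% in GE and 4.01% and 4.44% in S. Their median log2 FC was 0.40 in LE, −0.54 in GE and 0.99 in S. Without pregnant gilt 01, whose summed level of these genes was the highest of LE (3354 CPM) and S (3612 CPM), the median was 0.18 in LE and −0.047 in S. In GE it lay between −0.9999 without pregnant gilt 01 and 0.39 without control gilt 02, the library with the highest sum there (4615 CPM).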

How the data were processed

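The authors mapped single reads with Hisat2 to Sscrofa11.1 of NCBI after trimming 5 bases from the read start, used 8 random adapter bases to drop PCR duplicates, and applied a CPM cutoff. The deposited tables, 1 per cell type, hold the authors' read counts per NCBI Gene ID without normalization. How reads were counted, whether strand was used and where the cutoff lay are not given in the sources used here. Without strand, overlapping genes cannot be told apart.

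Symbols, positions, exon lengths and sequences were taken from the RefSeq annotation (release 106) of the same build. Each cell type was fitted over all its genes by the quasi-likelihood F test after TMM normalization (edgeR 4.0.16 under R 4.3.3). The SE given with a log2 FC was calculated back from this test, as the absolute log2 FC divided by the square root of the F statistic. It is thus approximate, above all for genes with low counts. Members were called by the study's thresholds, which are an FDR below 0.01 for LE and, for GE and S, an unadjusted p value of less than 0.0021. Cell types and interactions were fitted on genes listed in both tables (FDR below 0.05). Alternatives were RLE size factors, library size alone, at least 10 counts in every library, the likelihood ratio test, DESeq2 1.42.0, another FDR, each gilt left out and, between cell types, the gilt as a block. Same-numbered libraries come from 1 gilt, since the study gives the number as the animal. Their deviations from the group means correlated with a median of 0.318 (S and LE), 0.487 (S and GE) and 0.252 (GE and LE). The medians between different gilts were −0.033, −0.18 and −0.024, where centring on group means favours negative values. Above 0.1 were 6 of 6 gilts (S and LE), 5 of 6 (S and GE) and 6 of 8 (GE and LE), with a lowest value of −0.175 (S and GE). On simulated counts with 200 genes changed by a log2 value of 2, the pregnant against control fits found 155 in LE, 165 in GE and 126 in S, with 1, 22 and 19 false calls.

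The members and lists were chosen with earlier results of these data known. Per-library values are given for called members, members without overlap in S, 5 defining endothelial genes, the lymphatic genes and the growth factors. Other members are given by counts and ranges. Intervals and floors cover counting error only, since reads of 1 library share its amplification.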

Additional observations from a re-analysis of the deposited data

Results flagged for a closer look

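In the groups of 4 libraries, 74 sets of values of single members and of the pan-endothelial sum were searched for a library far from the other 3, where chance alone would mark about 1 in 20 (3.7 of the 74). There were 2 such values, fewer than that. Both belonged to the control GE library of gilt 02, with 369 CPM of PECAM1 and 124 CPM of ANGPT2, beside 6.75 to 44.4 CPM and 30.8 to 35.9 CPM in the other control GE libraries. The fibroblast markers of this library (47998 CPM) were the highest of GE and its epithelial markers (837 CPM) the lowest, and their part in the result was not tested.

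VEGFD was higher in every pregnant S library and lower in every pregnant LE and GE library than the mean of the controls. It was listed in S through pregnant libraries only and in LE through control libraries only, so that the filter favoured these directions. The responses differed by a log2 value of 2.80 between S and LE (FDR = 0.260) and by 2.30 between S and GE (FDR = 0.991) in the quasi-likelihood test of edgeR, neither of which passed the threshold.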

How the results depend on the processing

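In LE, 4 members were called, 2 with library size alone (which moved the median log2 FC of all genes from 0.0076 to −0.14) and 1 to 3 when a gilt was left out. DLL4 was called in each of these fits. In S, 2 members were called, against 0 with at least 10 counts in every library (34 members left), 6 with the likelihood ratio test, 6 with DESeq2, 0 at an FDR below 0.05 and 0 to 5 without a gilt. The median log2 FC of the members in S lay between −0.22 (without pregnant gilt 01) and 1.47 when a gilt was left out. Between GE and LE, 10 members were called, 4 at an FDR below 0.01 and 4 to 14 without a gilt, with 4 of them without pregnant gilt 05 and 5 without pregnant gilt 03. Between S and LE, 0 were called, 1 with DESeq2 and 0 to 20 without a gilt. The difference in response was called for 0 members, but for S against LE for 1 with the likelihood ratio test, 1 with DESeq2 and 0 to 1 without a gilt, and for GE against LE for 2 with either of these tests and 0 to 2 without a gilt. With the gilt as a block, which pairs libraries of the same gilt, 14 members were called between S and LE and 15 between GE and LE. In the response of GE against LE the block called 1 (PGF), which was listed in LE through pregnant libraries only. The block left the other counts of calls as they were. Of the called single members, 159 recalculated values stayed past the threshold, 64 did not, and none changed sign. Low counts limit the lymphatic genes, where 3 counts correspond to 0.88 to 2.43 CPM in S.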
